A study of Saccharomyces cerevisiae with 6 samples.

Results

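Budding yeast takes up iron by reducing ferric iron at the cell surface and by capturing siderophores, small ferric chelators that bacteria and other fungi secrete and that this yeast does not make itself. Siderophore-bound iron is first held in the cell wall by the FIT mannoproteins, which are anchored through a glycolipid, and is then imported whole by the ARN transporters of the major facilitator superfamily, each with its own range of siderophores. Both gene families belong to the regulon that the transcription factors Aft1 and Aft2 switch on when iron is short.

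The 7 genes described here are the 3 mannoprotein genes FIT1, FIT2 and FIT3 and the 4 siderophore transporter genes ARN1, ARN2, SIT1 and ENB1, out of 5379 genes named on the array. They were chosen by name with earlier results of these data known, so their counts and ranks are a description. Each had 1 spot, and all 7 had a value on every array, as did 4312 genes in all. Treated cells were Saccharomyces cerevisiae S288C growing exponentially in YPD at 25 °C and given 12.6 µM zinc pyrithione for 2 h, an antifungal compound in which pyrithione binds zinc, dissolved in dimethyl sulfoxide. Control cells were the same strain in the same medium, left for 2 h without treatment. PolyA RNA of treated cells (Cy5) and control cells (Cy3) was hybridised together on 3 cDNA arrays from independent biological samples, and every array was read by the scanner at a high and a low laser power.

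All values are log2 ratios normalised by the authors, read as treated over untreated, which is likely from the order of the channels but is not stated with the values. If the ratio runs the other way, every "higher" becomes "lower". Dyes were not exchanged on any array and the control was not labelled as receiving the solvent, so dye, solvent and compound cannot be told apart. A ratio averages over the culture, so that a change in every cell and a change in some of the cells cannot be told apart, and it holds no level: how abundant each transcript was is not known. Scans held values for between 1789 and 5737 of the 6912 spots. The arrays' number, 3, limits the precision, and the median SD between arrays was 0.52 for the 7 genes and 0.27 for all genes tested.

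All 7 genes had a positive mean log2 ratio, and 6 of them rose in treated cells, the exception being ENB1, at a threshold of 0.05 on the limma adjusted p. Over all 4312 genes tested, 8.12% were called higher and 9.6% lower. The 7 genes had a median log2 ratio of 4.58, against 0.03 for all genes tested. FIT1, ARN2, FIT2, FIT3 and ARN1, in this order, were the 5 highest of all genes tested, SIT1 ranked 10 and ENB1 ranked 72. At a stricter adjusted p of 0.01 the same 6 were called, beside 3.06% of all genes, and 6 were also 2-fold or more higher on every array, beside 1.67% of all genes.

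**Figure D1:**
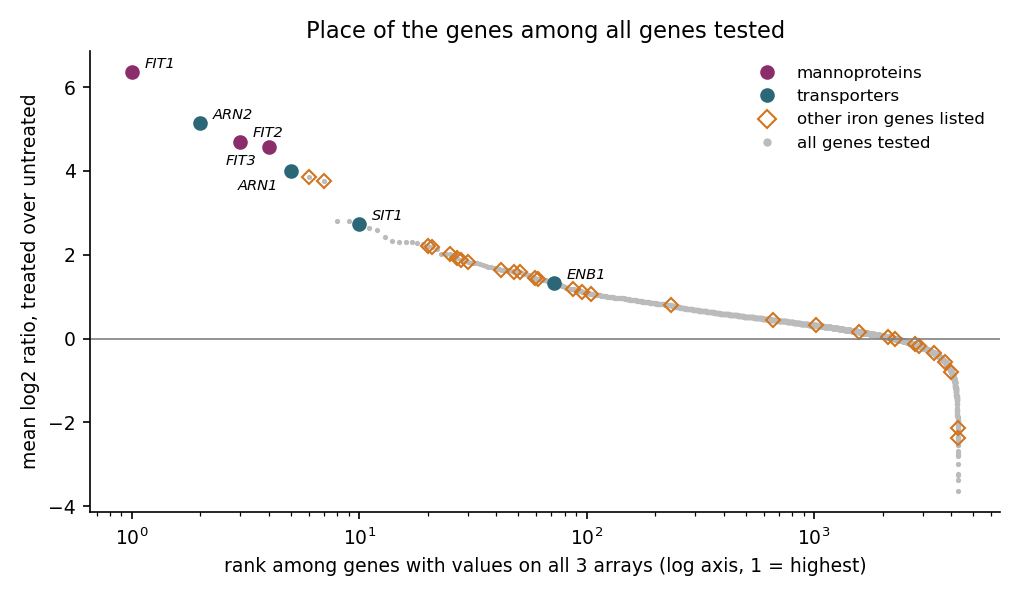
Mean log2 ratio over 3 arrays (treated over untreated, y axis) against rank (log x axis) for the 4312 genes tested, with mannoproteins and transporters as filled points and the other iron genes listed as open diamonds. Of the 7 genes, 6 stand among the first 10 and ENB1 stands at rank 72.

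FIT1 (YDR534C) encodes the largest of the cell wall mannoproteins that retain siderophore iron. Its log2 ratios were 5.82, 6.23 and 7.06 on arrays 1, 2 and 3, all from high-power scans. It was the highest gene on each of the 3 arrays, and its lowest array still corresponded to a 56.4-fold difference. The mean was 6.37 ± 0.63 (SD, n = 3), which is 82.6-fold, with a 95% interval from limma of 55.7-fold to 122-fold (limma adjusted p = 2.91e-05). No low-power scan held a value for FIT1, so that its ratio has no second reading at the lower laser power on any array.

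FIT2 (YOR382W) and FIT3 (YOR383C) encode smaller mannoproteins and are direct neighbours on chromosome XV. FIT2 had log2 ratios of 4.52, 5.01 and 4.57 on arrays 1, 2 and 3, the last of them from the low-power scan and the others from high-power scans. FIT3 had 4.32, 4.94 and 4.48, the last being the mean of both scans. FIT2 was above FIT3 on every array with scans averaged, but by no more than 0.20, and the ranges of both genes overlapped. On array 3 this sets a low-power value of FIT2 against the mean of both scans of FIT3. There FIT3 gave 4.93 at high power and 4.02 at low power, against 4.57 at low power for FIT2. FIT2 averaged 4.70 ± 0.27 or 26.0-fold, with an interval from 19.7-fold to 34.2-fold (SD, n = 3; limma adjusted p = 2.91e-05). FIT3 averaged 4.58 ± 0.32 or 23.9-fold, with an interval from 17.9-fold to 31.9-fold (SD, n = 3; limma adjusted p = 2.91e-05). FIT1 stood above FIT2 by 1.30, 1.22 and 2.48 on the log2 scale, the last setting a high-power value against a low-power one. By these array values, the 3 mannoprotein genes fell into 1 gene well above a close pair. At low power on array 3, however, FIT2 and FIT3 were farther apart.

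ARN2 (YHL047C), also called TAF1, encodes the transporter of triacetylfusarinine C, a fungal siderophore. Its log2 ratios were 4.50, 5.31 and 5.59 on arrays 1, 2 and 3. Array 1 was the lowest, and even there the difference was 22.6-fold. The mean was 5.13 ± 0.57 or 35.1-fold, with an interval from 24.3-fold to 50.8-fold (SD, n = 3; limma adjusted p = 4.48e-05). The values on arrays 1 and 3 came from low-power scans alone and the value on array 2 from the high-power scan alone, so laser power and array cannot be told apart for this gene.

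ARN1 (YHL040C) encodes a transporter of ferrichromes, siderophores made by many fungi. It had log2 ratios of 3.53, 4.55 and 3.88 on arrays 1, 2 and 3, with array 2 highest. The mean was 3.99 ± 0.52 or 15.9-fold, with an interval from 11.1-fold to 22.6-fold (SD, n = 3; limma adjusted p = 0.000124). ARN1 was below FIT2 and below FIT3 on every array, by 0.45 to 0.99 and by 0.38 to 0.79, although the ranges over arrays overlapped.

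SIT1 (YEL065W), also called ARN3, encodes the transporter of ferrioxamine B, a bacterial siderophore. Its log2 ratios were 2.55, 3.06 and 2.59 on arrays 1, 2 and 3, a range of 0.51 that was narrower than that of the other genes except FIT2. The mean was 2.73 ± 0.28 or 6.65-fold, with an interval from 5.03-fold to 8.79-fold (SD, n = 3; limma adjusted p = 0.000174). SIT1 did not overlap with any of the 5 genes above it.

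ENB1 (YOL158C), also called ARN4, encodes the transporter of enterobactin, a siderophore of enteric bacteria. Its log2 ratios were 0.21, 2.54 and 1.23 on arrays 1, 2 and 3. The 3 arrays were far apart: the difference was 1.16-fold on array 1 and 5.81-fold on array 2. The mean was 1.32 ± 1.17 or 2.50-fold, with an interval from 1.34-fold to 4.67-fold before adjustment (SD, n = 3; limma adjusted p = 0.0532). Of the 4312 genes tested, 23 (0.533%) had an SD at least as large. Without replicate 1 the mean was 1.88 and past the threshold (limma adjusted p = 0.019), without replicate 2 it was 0.72 (limma adjusted p = 0.179), and without replicate 3 it was 1.37 (limma adjusted p = 0.126).

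**Figure D2:**
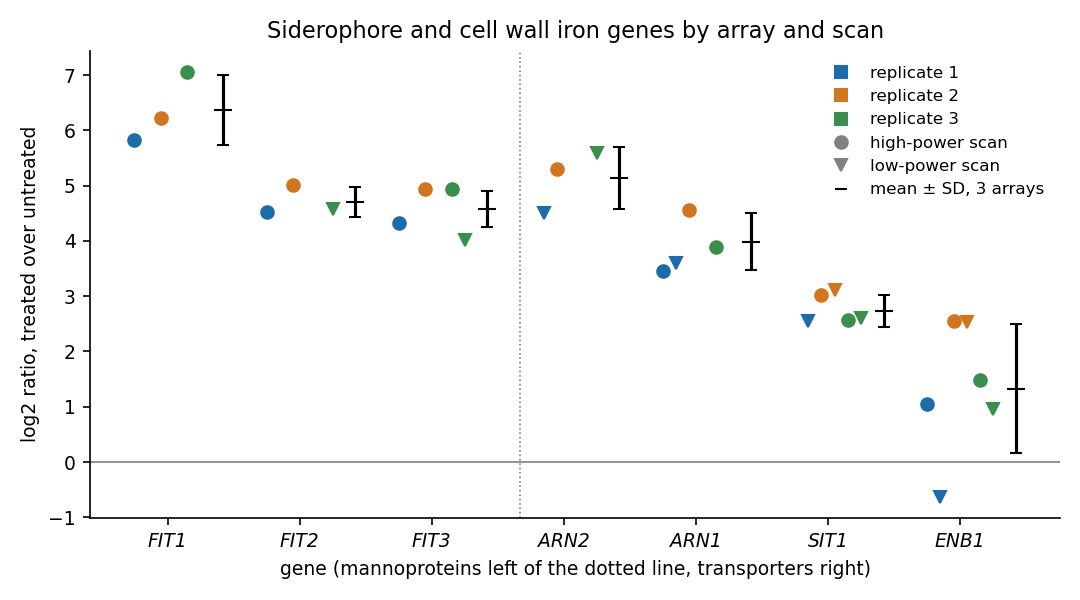
Log2 ratio (treated over untreated, y axis) of each gene (x axis) in every scan, with replicates by colour, high-power scans as circles, low-power scans as triangles, and the mean ± SD of 3 arrays in black. All values but the low-power scan of ENB1 in replicate 1 lie above 0, and scans without a value have no symbol.

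The order by mean was FIT1, ARN2, FIT2, FIT3, ARN1, SIT1 and ENB1. Of the 21 pairs of genes, 20 kept the same order on all 3 arrays, and in 15 the ranges over arrays did not overlap. The exception was ARN2 over FIT2, which differed by -0.02, 0.30 and 1.02 on arrays 1, 2 and 3. FIT2 over FIT3 kept its order only with scans averaged. On array 3 the high-power value of FIT3, 4.93, was above the low-power value of FIT2, 4.57. Of the 6 pairs of neighbours in this order, the ranges overlapped in 3, namely ARN2 with FIT2, FIT2 with FIT3 and FIT3 with ARN1. FIT1 over ARN2 (a difference of 1.23 ± 0.28, SD, n = 3), ARN1 over SIT1 (1.25 ± 0.26) and SIT1 over ENB1 (1.41 ± 0.91) did not overlap. Differences between pairs are given as values and were not tested. Some set a high-power value against a low-power one, as FIT1 over ARN2 on arrays 1 and 3.

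Set against each other as classes, the mannoproteins stood above the transporters on every array. The mean log2 ratio of the 3 mannoproteins was 4.89, 5.39 and 5.37 on arrays 1, 2 and 3, and that of the 4 transporters was 2.70, 3.86 and 3.32. The difference of mannoproteins minus transporters was 2.19, 1.53 and 2.05, with a mean of 1.92 ± 0.35 (SD, n = 3), which is 3.79-fold. It rests in part on ENB1: without that gene the difference was 1.26 ± 0.16 or 2.40-fold, and with class medians in place of means it was 1.34 ± 0.14. It also rests on FIT1, whose mean of 6.37 compares with 4.70 for FIT2 and 4.58 for FIT3. A difference without FIT1 was not computed. The classes were also read at different laser powers. Low-power scans held 0 mannoprotein values on arrays 1 and 2, against 4 and 2 transporter values. With array 1 read from its high-power scan where present, an alternative chosen after the data were seen, the difference was 1.86 ± 0.29 (SD, n = 3). ARN2, at a mean of 5.13, was above both FIT2 and FIT3. The mannoproteins spanned 4.32 to 7.06 over arrays and the transporters 0.21 to 5.59, so the classes overlapped. Within each array ARN2 was the sole transporter to reach the mannoproteins. Of the 12 pairs of 1 mannoprotein and 1 transporter, the mannoprotein was higher on all 3 arrays in 10, and the other 2 were FIT2 and FIT3 against ARN2.

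**Figure D3:**
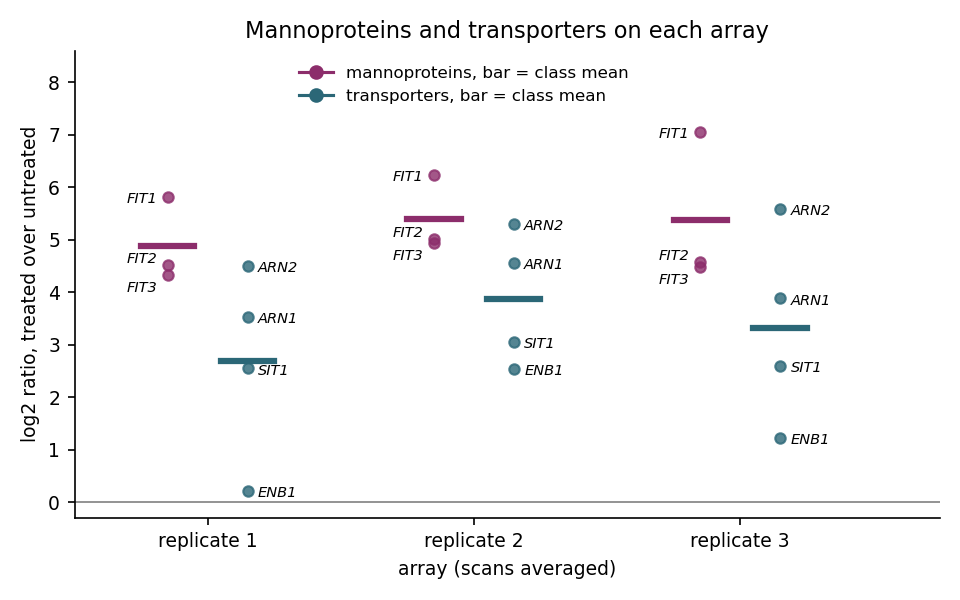
Log2 ratio of each gene (treated over untreated, y axis) on each array, scans averaged, with mannoproteins left and transporters right within a replicate and bars at the class means. The mannoprotein mean is above the transporter mean on all 3 arrays, and ARN2 lies among or above FIT2 and FIT3.

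The arrays differed in the size of the response. The mean over the 7 genes was 3.63, 4.52 and 4.20 on arrays 1, 2 and 3, and array 1 was lowest for each of the 7 genes. FIT1 and ARN2 were highest on array 3, whereas FIT2, FIT3, ARN1, SIT1 and ENB1 were highest on array 2. What these differences between arrays move with was not tested.

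Both scan powers gave values unevenly over the 7 genes. Of the 21 combinations of gene and array, 7 had both scans, 10 had the high-power scan alone and 4 the low-power scan alone. Those 4 were ARN2 and SIT1 on array 1 and ARN2 and FIT2 on array 3. A value from the low-power scan alone was rare in general, with 54 of 5273 genes on array 1 (1.02%), 1 of 4872 on array 2 and 37 of 4509 on array 3 (0.821%). Per the labels, arrays were scanned at the lower power to recover spots beyond the scanning range, and whether that held for these 4 values was not tested, since spot intensities were not analysed here.

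Where both scans held a value, they were within 0.15 of each other for SIT1, for ARN1 and for ENB1 on array 2, and farther apart for FIT3 and for ENB1 on arrays 1 and 3. SIT1 gave 3.02 at high power and 3.10 at low power on array 2, and 2.57 at high power and 2.61 at low power on array 3. ARN1 gave 3.45 at high power and 3.60 at low power on array 1. FIT3 gave 4.93 at high power and 4.02 at low power on array 3, a gap of 0.91 that 3.61% of the 3213 genes with both scans reached.

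ENB1 was the one gene of the 7 with all 6 scans. On array 1 it gave 1.04 at high power and -0.63 at low power, which is a change of sign. This gap of 1.67 was reached by 20 of the 2293 genes with both scans there (0.872%), over which the median gap was 0.15. On array 2 it gave 2.54 at high power and 2.53 at low power, and on array 3 it gave 1.49 and 0.96. High-power scans alone put ENB1 at 1.69 ± 0.77 (SD, n = 3; limma adjusted p = 0.00329) and low-power scans alone at 0.96 ± 1.58 (SD, n = 3; limma adjusted p = 0.273). In high-power scans alone, 12.1% of 4252 genes were called higher. The difference of high minus low was 0.74 ± 0.85 for ENB1 (SD, n = 3; limma adjusted p = 0.908) and -0.07 ± 0.03 for SIT1 (SD, 2 arrays; limma adjusted p = 0.969). Of 2324 genes with both scans on at least 2 arrays, limma called 0, and 84 had an unadjusted p under 0.05. ENB1 was among the 84 (limma unadjusted p = 0.0398). With array 1 alone read from its high-power scans, an alternative chosen after the data were seen, ENB1 stood at 1.60 and passed the threshold (limma adjusted p = 0.00972), and the calls of the other 6 genes were the same.

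**Figure D4:**
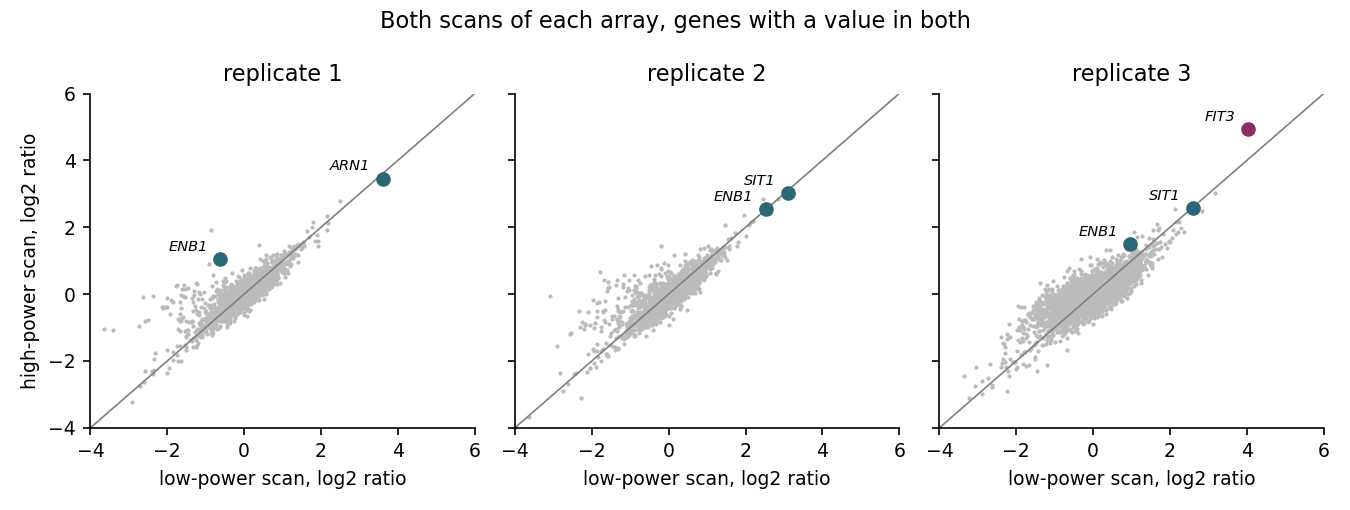
Log2 ratio in the high-power scan (y axis) against the low-power scan (x axis) for genes with both, 1 panel per replicate, with the diagonal of equal values in grey. SIT1 and ARN1 lie close to the diagonal, while ENB1 in replicate 1 (1.04 against -0.63) and FIT3 in replicate 3 (4.93 against 4.02) lie above it.

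Among the other iron genes listed, the highest 2, HMX1 and FRE2, lay below the mannoproteins, ARN2 and ARN1 by mean log2 ratio and above SIT1 and ENB1. The 4 lists were reductive uptake, iron transport of organelles, other targets of the regulon and iron-sensing regulators. Over them, 17 of 29 genes tested rose (58.6%) and 3 fell, with a median of 1.11. Over all genes tested, 8.12% rose and 9.6% fell, with a median of 0.03. In reductive uptake, 8 of 11 rose and 1 fell, with a median of 1.58. FRE2, a ferric reductase gene that also serves siderophores, stood at 3.76 ± 0.63, and FET3, the multicopper ferroxidase gene, at 2.20 ± 0.59 (SD, n = 3; limma adjusted p = 0.00018 and 0.00105). FRE1, a reductase gene of iron and copper uptake, fell to -2.37 ± 0.84 (SD, n = 3; limma adjusted p = 0.00246). On every array FRE2 stood below each of the 3 mannoproteins and above SIT1 and ENB1.

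Among 6 tested genes of organelle iron transport, 3 rose and 2 fell, with a median of 0.49. The counts of the small lists here stand beside 8.12% higher and 9.6% lower over all genes tested. COT1, which encodes a carrier of zinc and cobalt into the vacuole, rose to 1.45 ± 0.29, and FET5, the ferroxidase gene of the vacuolar membrane, to 1.42 ± 0.12 (SD, n = 3; limma adjusted p = 0.00195 and 0.00117). CCC1, which carries iron into the vacuole for storage, had log2 ratios of -1.84, -2.69 and -1.84 and fell, as FRE1 did (limma adjusted p = 0.00079). The other gene of this list that fell was SMF3, at -0.79 ± 0.12 (SD, n = 3; limma adjusted p = 0.0135). Of 7 intracellular targets, 5 rose and 0 fell, with a median of 1.83, led by the heme oxygenase gene HMX1 at 3.85 ± 0.66, TIS11 at 1.91 ± 0.20, whose product speeds the turnover of messages for iron-dependent proteins, and the iron-sulfur scaffold gene ISU2 at 1.87 ± 0.27 (SD, n = 3; limma adjusted p = 0.00018, 0.000418 and 0.000584). Of 5 regulators tested, 1 rose and 0 fell, with a median of 0.16. It was YAP5, the gene of an iron-responsive activator that acts on CCC1, with log2 ratios of 1.30, 1.11 and 1.13 (limma adjusted p = 0.00292). AFT1 and LSO1 were not analysed here, and MRS4, VHT1 and GRX4 had values on 2 arrays.

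Relatives by sequence family or by place in the cell wall had medians near that of all genes tested. Of 8 tested transporter genes related to the ARN family or to its multidrug cousins, 1 rose (12.5%) and 0 fell, with a median of 0.08. It was ATR1, which encodes an exporter of borate and aminotriazole, at 1.57 ± 0.12 (SD, n = 3; limma adjusted p = 0.000755). GEX1, a glutathione exchanger gene of the ARN family named here after its values were seen, had log2 ratios of 0.40, -0.01 and 0.39 (limma adjusted p = 0.301). Of 15 other cell wall mannoprotein genes tested, 2 rose (13.3%) and 1 fell, with a median of 0.11. Over all genes tested, 8.12% rose and 9.6% fell, so the counts of both lists are near those shares. GEX2 had 0.51 and 0.11 on arrays 1 and 2, and VBA3 had 1.42 and 0.59 on arrays 1 and 3. DAN1 had 1.04 on array 1, and none of these genes was tested in the fit on all 3 arrays, for lack of values. TIR1 and TIP1, of the cold-inducible wall proteins, rose to 0.95 ± 0.02 and 0.61 ± 0.16, and CCW12, a major wall mannoprotein gene, fell to -1.06 ± 0.50 (SD, n = 3; limma adjusted p = 0.00629, 0.0357 and 0.0157). A cDNA spot can bind transcripts of related sequence, and how far this touches the ARN genes, which resemble each other, was not tested because spot sequences were not analysed here.

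**Figure D5:**
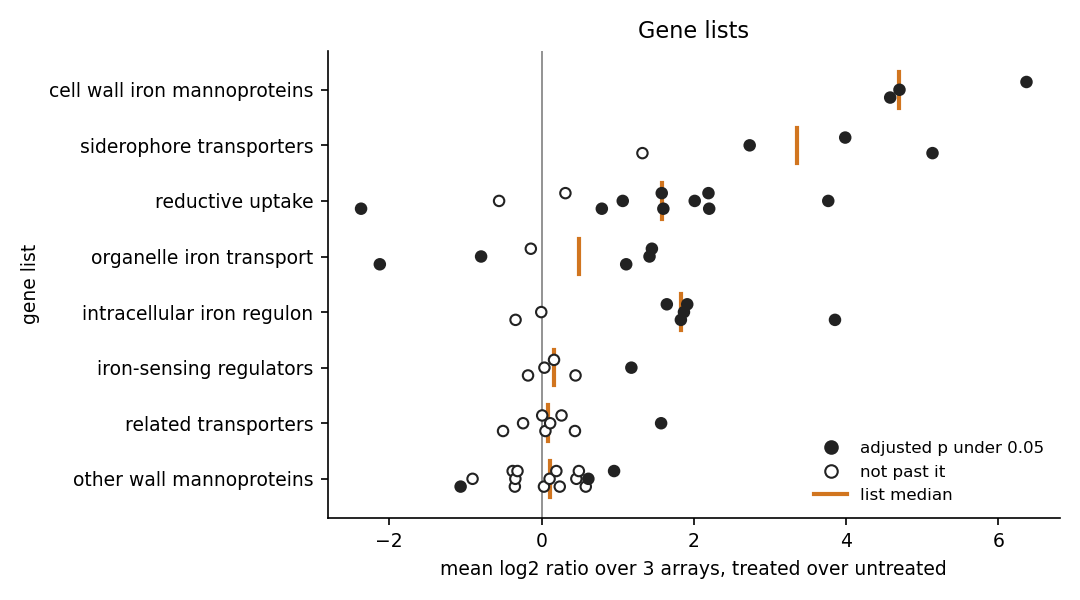
Mean log2 ratio over 3 arrays (treated over untreated, x axis) of each gene tested, by list (y axis), filled where the limma adjusted p is under 0.05, with the list median as a bar. Medians are 4.70 for the iron mannoproteins and 3.36 for the siderophore transporters, 1.58 for reductive uptake, and 0.08 and 0.11 for the related transporters and the other wall mannoproteins.

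The genes whose log2 ratios over the 3 arrays lay closest to the mean of the 7, by root mean square difference, were FRE2 (0.43), HMX1 (0.80), PDR5 (1.33), MET17 (1.38) and HUG1 (1.51). The median of this difference over all other genes tested was 4.11. Since the 7 genes averaged 4.12, the measure mainly follows the size of the ratio. The genes it picked ranked 7, 6, 8, 9 and 11 among all tested, so it does not show a shared pattern over arrays. FRE2 tracked the mean over arrays at 3.27, 4.48 and 3.55, with array 2 highest as for 5 of the 7 genes, whereas HMX1 was lowest on array 2 at 3.19. PDR5, a multidrug efflux pump gene, MET17, the gene of a sulfide-fixing enzyme, and HUG1, a gene induced by DNA damage, are not iron uptake genes and averaged 2.80 ± 0.35, 2.80 ± 0.26 and 2.64 ± 0.15 (SD, n = 3), at about the ratio of SIT1.

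The 7 genes share a position near chromosome ends, which the choice of genes did not use. In the gene order of the RefSeq annotation (assembly R64), used here for names and order alone, ARN2 is protein-coding gene 5 from its chromosome end, FIT1 is 8, ENB1 is 11, ARN1 is 12, SIT1 and FIT3 are 13 and FIT2 is 14. They lie on 4 chromosomes, IV, V, VIII and XV. ARN1 and ARN2 are both on VIII and FIT2 and FIT3 are adjacent, so the 7 positions are not independent. Within 20 protein-coding genes of an end, a window chosen after seeing where the 7 lie, there were 413 other tested genes, against 3892 elsewhere. FIT2 and FIT3 sit between reductase genes, with FRE3 on the side of FIT2 and FRE5 beside FIT3. Along this stretch FRE3 had a mean log2 ratio of 2.01 ± 0.24, FIT2 and FIT3 the values above, and FRE5 0.79 ± 0.11 (SD, n = 3; limma adjusted p = 0.000391 for FRE3 and 0.0135 for FRE5). All 4 iron genes rose, FRE3 and FRE5 by less than the close pair of FIT2 and FIT3. The next gene beyond FRE5, YOR385W, fell to -1.06 ± 0.42 (SD, n = 3; limma adjusted p = 0.0117).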

How the data were processed

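The deposited values are log2 ratios of the 2 dyes, 1 column per scan. Per the labels, the authors used spots without a quality flag for LOWESS normalization. This centres the ratios on 0 and hides any change common to most genes. The log base was read from the lowest value, -6.64, the log2 of 0.01. Scan medians ran between 0.0186 and 0.0817. Of 6912 spots, the platform annotation gave 1 gene for 5446, several for 0 and none for 1466. All 5446 matched the RefSeq annotation. Spots of a gene were averaged. The authors' merged value, named in the labels, and sequences were not analysed here. The version of their software was not stated. There were 0 unused sample columns.

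Both scans of an array were averaged where present, otherwise the one present was taken, so the 6 scans made 3 replicates. Using limma 3.58.1 under R 4.3.3 (lmFit, eBayes), the mean was tested against 0 over the 4312 genes with values on all arrays, with Benjamini-Hochberg adjustment over all of them and a threshold of 0.05. The difference of both scans was tested likewise. The procedure was tested on simulated data. Class differences were given without a test. The members and lists were chosen with earlier results of these data known. Named genes were all 7 members, up to 3 called genes of each list farthest from 0, and the 5 genes nearest to the mean of the 7. The flanking genes FRE3 and FRE5 were named by position. SMF3 and ISU1 were named beside CCC1 and ISU2 of their lists. Alternatives were 1 laser power alone, genes with both scans or with at least 2 arrays, centred scans, quantile normalization, robust eBayes, an adjusted p under 0.01, 2-fold on every array, treat against 1.5-fold, and each replicate left out. Figures were drawn with matplotlib 3.10.9.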

Additional observations from a re-analysis of the deposited data

How the results depend on the processing

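FIT1, FIT2, FIT3, ARN1, ARN2 and SIT1 were called higher in each of the 64 gene and setting combinations run, with a highest limma adjusted p of 0.00331. Their lowest and highest log2 ratios were 6.02 and 6.64 for FIT1, 4.55 and 4.91 for FIT2, 4.40 and 4.73 for FIT3, 3.70 and 4.22 for ARN1, 4.90 and 5.45 for ARN2, and 2.57 and 2.82 for SIT1. The 64 combinations are not independent checks. FIT1, FIT2 and ARN2 had no array with both scans, so settings that choose between scans could not change their values. Robust eBayes and the fit of genes with at least 2 arrays left all 6 means as they were. Quantile normalization gave FIT1, highest on every array, the same value on all 3. FIT2, ARN2 and SIT1 could not be fitted on high-power scans alone, nor could FIT1, FIT2, FIT3, ARN1 and ARN2 on low-power scans alone, for lack of values. ENB1 passed the threshold at 1.69 with high-power scans alone, at 1.69 with high-power values preferred, at 1.60 with replicate 1 read from its high-power scan, and at 1.32 among genes with both scans on all arrays (limma adjusted p = 0.00329, 0.00365, 0.00972 and 0.0456). The settings that prefer one scan were added after the data were seen. Leaving out 1 replicate at a time moved ENB1 between 0.72 and 1.88, and its limma adjusted p over all settings ran between 0.00329 and 0.273. The count of members called was 1 of 2 tested with low-power scans alone and 1 of 1 among genes with both scans on all arrays, because few members had those values, and was 6 or 7 without 1 replicate. Mannoproteins minus transporters was 2.72 with high-power scans alone (FIT1 and FIT3 minus ARN1 and ENB1), 1.26 without ENB1, 1.34 with medians, and between 1.79 and 2.12 without 1 replicate. It could not be computed on low-power scans alone and was not computed without FIT1. Other iron genes, 17 higher and 3 lower, numbered 6 and 0 with low-power scans alone and 5 and 0 with both scans on all arrays, where 10 and 9 were tested. Over all genes, 5.18% and 12.8% were higher in those settings. Among genes with at least 2 arrays, which added MRS4, VHT1 and GRX4, 17 of 32 other iron genes were higher and 4 lower. In that setting 6.5% of all genes were higher. Related transporters and other wall mannoproteins together had 3 higher and 1 lower of 23 tested, where 8.12% of all genes were higher. They had 6 and 2 of 22 with high-power scans alone and of 23 with high-power values preferred (12.1% and 12.4% of all genes higher), 0 higher of 14 with low-power scans alone (5.18%), and 1 and 3 of 13 with both scans on all arrays (12.8%). With low-power values preferred 2 of 23 were lower, and without 1 replicate 0 to 2 of 23 or 24. With at least 2 arrays, which added GEX2 and VBA3, 3 of 25 were higher and 1 lower (6.5% of all genes higher). The cause of these moves was not tested. No paired analysis was possible because the series holds 1 group, in which each array already pairs treated with untreated RNA.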

Other observations

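Genes beside the 7 were looked at after the data were seen. Of the 12 protein-coding genes directly beside one of them in the R64 order that are not among the 7, 8 were tested, 4 rose and 0 fell. FRE5, 1 of those 4, is also counted in the reductive uptake list. Over all 4312 genes tested, 8.12% rose and 9.6% fell, and these few neighbours were not tested against those shares. Of the genes one place farther out, 6 were tested, of which 1 rose (FRE3) and 2 fell, YOR385W (-1.06 ± 0.42) and CAN1 (-0.81 ± 0.30), with limma adjusted p = 0.0117 and 0.0199 for those that fell. The direct neighbours that rose were HSP31 beside FIT1 (1.51 ± 0.06), FRE5 beside FIT3 (0.79 ± 0.11), EFM1 beside ARN1 (0.88 ± 0.19) and PAU13 beside ARN2 (0.69 ± 0.41, limma adjusted p = 0.0499), with SD over 3 arrays. STL1 on the other side of FIT1 had -0.18 ± 0.54 and COS8 on the other side of ARN2 had 0.34 ± 0.04, and neither passed the threshold (limma adjusted p = 0.609 and 0.158). Among all other genes within 20 protein-coding genes of a chromosome end, a window chosen after seeing where the 7 lie, 54 of 413 tested rose (13.1%), against 290 of 3892 elsewhere (7.45%), and the 2 shares were not tested against each other.

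GRX4, which encodes a glutaredoxin that signals iron status to Aft1, was singled out after its values were seen. GRX4 had log2 ratios of -2.60 and -2.40 on arrays 1 and 2 and no value on array 3. It was therefore not in the fit on all 3 arrays and entered only the fit of genes with at least 2 arrays. Its partner GRX3 stood at 0.45 ± 0.15 (SD, n = 3; limma adjusted p = 0.0881).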
